A study of Mus musculus with 7 samples.

Results

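Apolipoproteins are the proteins that wrap the lipids of plasma lipoproteins. They hold the particle together, switch the enzymes that hydrolyse or esterify its lipids on or off, and serve as ligands for the receptors that clear it. Liver is the main source of most of them in mammals, with the intestine as the other large source, while a few family names belong to lipocalins and other lipid-binding proteins that are made in further tissues.

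The 10 genes described here are Apoa1, Apoa2, Apoa4, Apoa5, Apoc1, Apoc3, Apod, Apof, Apoh and Apom. They were chosen by name, out of 50354 gene names in a table of RNA-Seq values, and Apoe and Apob were left out of the choice because they have no usable value in liver. All 10 had a locus in the table, all 10 reached at least 1 FPKM in a tissue, and 9 had a value in liver. RNA was sequenced from liver, kidney, skeletal muscle, cortex and 3 adipose depots, which were visceral (VAT), subcutaneous (SCAT) and interscapular brown (BAT). All 7 samples came from C57BL/6 mice (substrain C57BL/6N) of genotype wt at an age of 36 weeks, on the diet labelled NCD. The labels name no treatment and do not say whether the tissues came from the same animal. Each tissue has 1 library of total RNA depleted of rRNA and prepared with a directional kit, so the spread between animals is unknown, no test was possible, and every difference between tissues below compares single libraries. Levels are FPKM, fragments scaled for transcript length and library size, which allows different genes to be set side by side. Fragment counts are not part of the deposited table, and the depth of each library is therefore unknown. In bulk tissue, fewer cells of a type and less RNA per cell cannot be told apart.

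The tissues carried the markers of their labels. The summed level of the hepatocyte markers with a value was 11058 FPKM in liver, that of the kidney tubule markers 25457 in kidney and that of the skeletal muscle fibre markers 18407 in skeletal muscle. The last sum holds only Ckm (8592) and Tnnt3 (9815), since Acta1 has no value and Myh4 has none in skeletal muscle. Ucp1 had 6552 FPKM in BAT, Snap25 had 215 in cortex, and the adipocyte markers summed to 1071 in VAT and 415 in SCAT. Some libraries also held markers of other tissues. VAT carried epididymis markers (summed level 2639 FPKM, 3 of 3 genes highest there) and hepatocyte markers (594 FPKM, of which Cyp2e1 had 295 and Alb, which has no liver value, had 253). In kidney the hepatocyte markers summed to 341 FPKM, with 331 from Cyp2e1. SCAT carried lymphocyte markers (89.5 FPKM, 3 of 3 genes highest there) and pancreatic acinar markers (77.3 FPKM). Of the latter, Ctrb1 and Cpa1 were enriched there and Cela1 (11.5 FPKM) was not. BAT carried muscle fibre markers (561 FPKM, of which Tnnt3 had 307, Ckm 166 and Myh4 87.5).

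The genes fell into different patterns. Apoa1, Apoa2, Apoa4, Apoa5, Apoc3, Apof and Apoh were high in liver and at 1.07% of the liver level or lower in every other library, or 2.6% with the libraries scaled to an equal sum over nuclear protein-coding genes. Apom was high in liver and, at a lower level, in kidney. Apod was highest in cortex and lowest in liver, and Apoc1, which has no usable value in liver, was highest in BAT. Enrichment in a tissue was defined as at least 1 FPKM and a log2(FPKM + 0.1) at least 2, a 4-fold difference, above that of every other tissue with a value. By this rule 8 of the 10 genes were enriched in liver, and the remaining tissues had 0 each. The background was 14928 protein-coding genes that reached 1 FPKM somewhere, of which 3.39% were enriched in liver by the same rule and 21.4% in any tissue. The background share was 8.21% for cortex, 3.38% for skeletal muscle, 2.49% for kidney, 1.93% for SCAT, 1.21% for VAT and 0.757% for BAT.

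**Figure D1:**
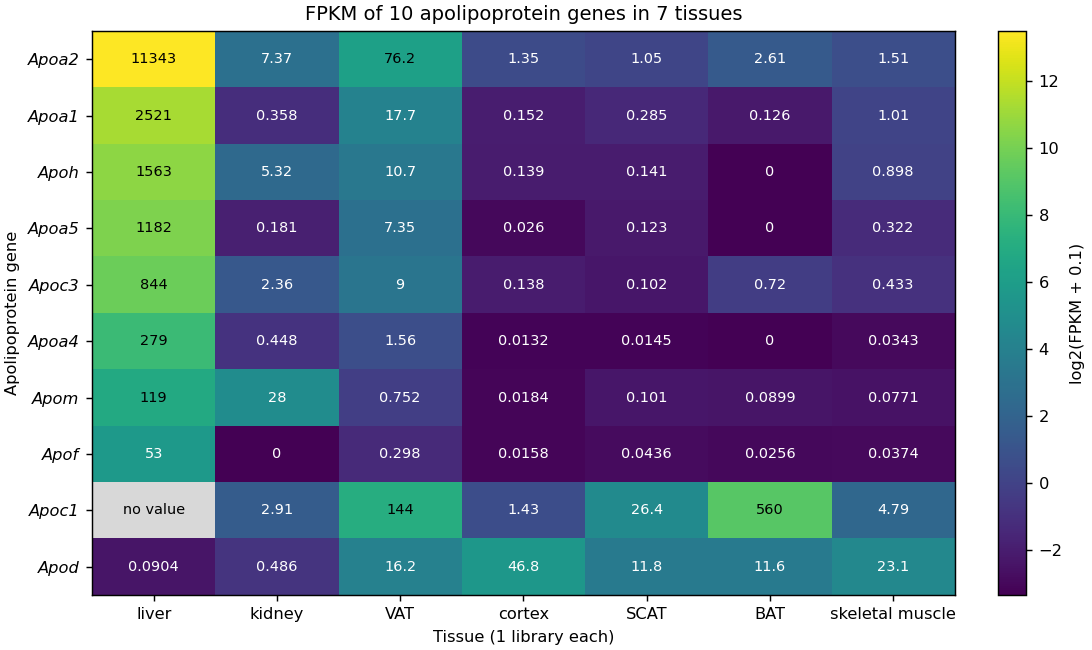
FPKM of the 10 apolipoprotein genes (rows) in the single library of each of 7 tissues (columns), with colour on a log scale and the value printed in each cell. Of the 9 genes with a liver value, 8 are highest in the liver column, from 53.0 FPKM for Apof to 11343 for Apoa2, while Apod is lowest there and Apoc1 has no liver value.

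Among the structural proteins of high-density lipoprotein (HDL), Apoa2, which is second to apolipoprotein A-I in the HDL particle, had 11343 FPKM in liver, 76.2 in VAT, 7.37 in kidney, 2.61 in BAT, 1.51 in skeletal muscle, 1.35 in cortex and 1.05 in SCAT. It was the highest of the 21316 protein-coding genes with a value in liver. Apoa1, the main HDL protein and an activator of the cholesterol-esterifying enzyme LCAT, had 2521 FPKM in liver, 17.7 in VAT, 1.01 in skeletal muscle, 0.358 in kidney, 0.285 in SCAT, 0.152 in cortex and 0.126 in BAT. It ranked 12 among protein-coding genes in liver. Both genes stood far above every other library in liver, and VAT was the next highest tissue for both, 143-fold below liver for Apoa1 and 149-fold below for Apoa2. The VAT level was 0.701% (Apoa1) and 0.672% (Apoa2) of liver, or 1.71% and 1.64% with the equal sum. Skeletal muscle took the third place for Apoa1 and kidney for Apoa2.

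Apoa4, a component of chylomicrons and HDL that the intestine secretes in large amounts, had 279 FPKM in liver, 1.56 in VAT, 0.448 in kidney, 0.0343 in skeletal muscle, 0.0145 in SCAT and 0.0132 in cortex, and was listed at 0 in BAT. Of the 4 enterocyte markers, Sis and Alpi were listed at 0 in liver and were under 0.1 FPKM in every tissue, Vil1 had 1.99 FPKM in liver and 42.5 in kidney, and Fabp2 had 186 FPKM in liver. Apof, which regulates lipid transfer between lipoproteins, was the lowest of the liver genes in absolute level, with 53.0 FPKM in liver, 0.298 in VAT, at most 0.0436 in the other tissues with a value above 0, and 0 listed in kidney. Apoh (beta-2-glycoprotein I), a phospholipid-binding plasma protein and a target of antiphospholipid antibodies, had 1563 FPKM in liver, 10.7 in VAT, 5.32 in kidney, 0.898 in skeletal muscle, 0.141 in SCAT and 0.139 in cortex, and was listed at 0 in BAT. All 3 genes again had VAT as their next highest tissue, at 0.558% (Apoa4), 0.563% (Apof) and 0.684% (Apoh) of liver, or 1.36%, 1.37% and 1.67% with the equal sum.

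Apoc3 and Apoa5 act in opposite directions on plasma triglycerides. Apoc3, an inhibitor of lipoprotein lipase and of remnant uptake, had 844 FPKM in liver, 9.0 in VAT, 2.36 in kidney, 0.720 in BAT, 0.433 in skeletal muscle, 0.138 in cortex and 0.102 in SCAT. Apoa5, which promotes hydrolysis of triglycerides by lipoprotein lipase, had 1182 FPKM in liver, 7.35 in VAT, 0.322 in skeletal muscle, 0.181 in kidney, 0.123 in SCAT and 0.0260 in cortex, and was listed at 0 in BAT. Both were highest in liver, with VAT next, and they ranked 57 (Apoc3) and 39 (Apoa5) among protein-coding genes in liver. Apoh ranked 27, Apoa4 193, Apom 517 and Apof 1061.

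Outside liver the order of the low values is loosely fixed. On the log2(FPKM + 0.1) scale, neighbours in this order lay less than 2-fold apart in 3 of 6 steps for Apoa1, Apoa2, Apoa4 and Apom. They did so in 4 of 6 for Apoa5 and Apof, and in 2 of 6 for Apoc3 and Apoh. That scale brings low values closer together. Some of these steps are therefore over 2-fold in FPKM, and some lead down to a value listed at 0. Without replicates, neighbours this close cannot be put in an order, and the full order of tissues was the same in 7 of the 10 genes with median-of-ratios size factors and in 4 with the equal sum. The step from liver to the next tissue was larger than any such gap. On the log2(FPKM + 0.1) scale, which understates differences of low values, it was 7.40 for Apoa4, 7.31 for Apoa5, 7.22 for Apoa2, 7.18 for Apoh, 7.15 for Apoa1, 7.06 for Apof and 6.54 for Apoc3, each over VAT, and 2.08 for Apom over kidney. The median of the 8 was 7.16, beside a median of 3.86 (quartiles 2.69 and 6.07) over all 506 protein-coding genes enriched in liver. The added 0.1 FPKM limits this ratio for genes with a low liver level. The 506 genes enter from 1 FPKM in liver, while the 8 had at least 53.0 FPKM there. The medians and the places among the 506 are therefore not matched for level. With the equal sum, the 8 log2 ratios had a median of 5.90 and ran from 1.49 for Apom to 6.14 for Apoa4. Apoa4 held place 16 among the 506, Apoc3 place 90 and Apom place 489. Leaving out the VAT library, so that the next tissue was another one, raised the log2 ratio to 11.15 for Apoa1, 11.45 for Apoa5, 10.57 for Apoa2, 8.99 for Apoa4, 8.53 for Apof, 8.42 for Apoc3 and 8.17 for Apoh.

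**Figure D2:**
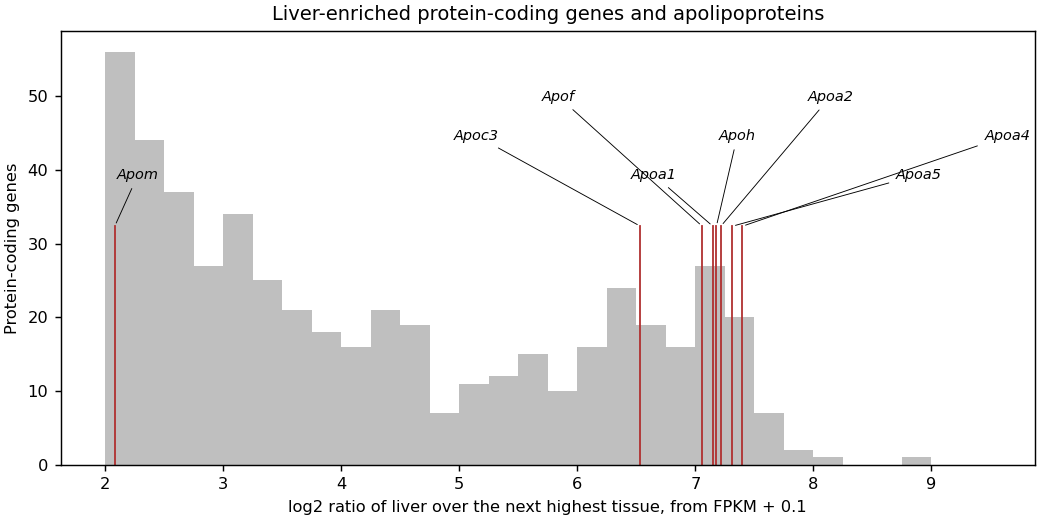
Histogram of the log2 ratio of liver over the next highest tissue, on the log2(FPKM + 0.1) scale, for the 506 protein-coding genes enriched in liver (y axis, number of genes), with the 8 enriched apolipoprotein genes marked. Of these 8, 7 lie between 6.54 and 7.40, above the third quartile of 6.07, and Apom lies near the lower end at 2.08. The added 0.1 FPKM limits the ratio of genes with a low liver level.

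The 6 comparisons of liver with another tissue share the liver library and are given side by side. Of the 9 genes with a value in both, 8 were at least 4-fold higher in liver than in kidney (background 6.56% of protein-coding genes tested), than in VAT (10.6%), than in cortex (15.7%), than in SCAT (13.7%), than in BAT (8.7%) and than in skeletal muscle (10.8%). The ninth gene in all 6 comparisons was Apod. The median log2 difference of the 9 genes, liver minus the other tissue, was 7.15 against VAT, 8.99 against kidney, 10.63 against skeletal muscle, 11.45 against BAT, 11.79 against cortex and 12.03 against SCAT. Over all genes tested the corresponding medians ran from -0.24 to 0.26.

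The level of the liver-enriched apolipoproteins in VAT lay within a narrow range relative to their level in liver. Their median in VAT was 0.653% of the FPKM in liver, from 0.558% for Apoa4 to 1.07% for Apoc3. With the equal sum the median was 1.59%, from 1.36% to 2.6%. The 7 hepatocyte markers with a liver value (Ahsg, Fga, Fgb, Hpx, Cps1, Cyp2e1 and Tat) had a median of 0.699% there, from 0.559% to 6.41%, and albumin (Alb), which has no liver value, had 253 FPKM in VAT beside 1.05 to 7.0 in the other tissues. Protein-coding genes enriched in liver with at least 100 FPKM there had a median of 1.10% in VAT. In the other libraries the medians of the 8 apolipoproteins were lower, at 0.113% in kidney, 0.0456% in skeletal muscle, 0.0140% in BAT, 0.0108% in SCAT and 0.0104% in cortex. With the equal sum the shares in SCAT and cortex rose by over 1.5 times and those in BAT did not. The order of BAT, SCAT and cortex therefore depends on the scaling. The hepatocyte markers had medians of 0.0157% in kidney, 0.0366% in skeletal muscle, 0.00509% in BAT, 0.0133% in SCAT and 0.00919% in cortex. The part of hepatocyte RNA from outside the tissue in these levels was not tested.

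**Figure D3:**
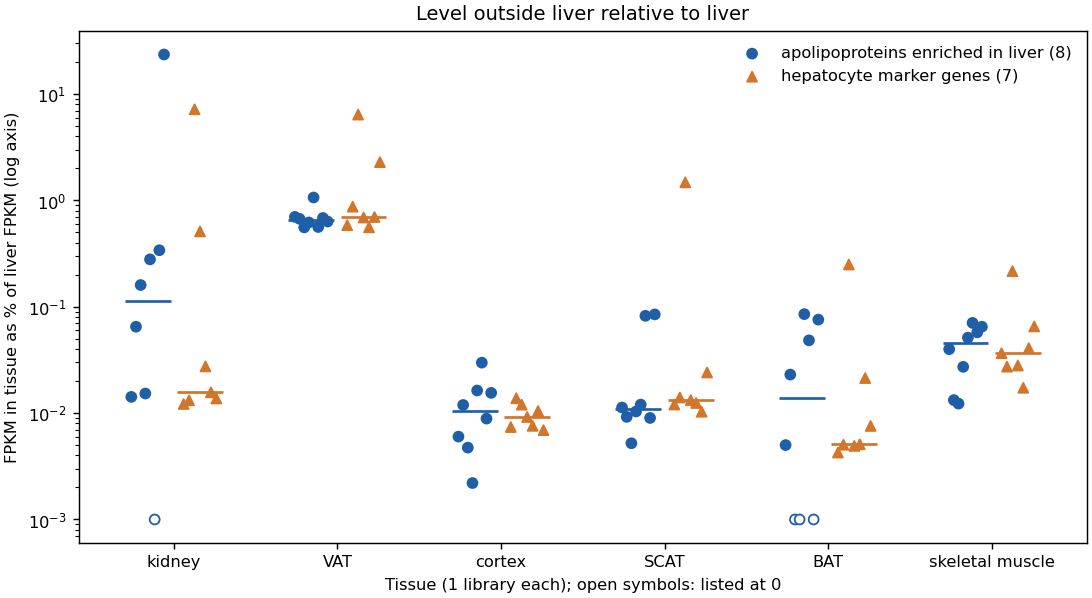
FPKM in each of 6 tissues as a percent of the FPKM in liver (log axis) for the 8 liver-enriched apolipoprotein genes and 7 hepatocyte markers, 1 point per gene, with horizontal lines at the medians and open symbols at the bottom for values listed at 0. In VAT both sets have medians near 0.7% (0.653% and 0.699%), and in kidney Apom stands apart at 23.6%.

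Apom, a lipocalin on HDL that carries sphingosine-1-phosphate, was the exception among the liver-enriched genes. It had 119 FPKM in liver, 28.0 in kidney, 0.752 in VAT, 0.101 in SCAT, 0.0899 in BAT, 0.0771 in skeletal muscle and 0.0184 in cortex. Liver and kidney were both high, with liver 4.24-fold above kidney, and the remaining tissues were under 1 FPKM. The kidney level was 23.6% of the liver level, whereas the hepatocyte markers in kidney had a median of 0.0157% and a highest value of 7.19% (Cyp2e1). Among the other liver-enriched members, Apoh (0.340%), Apoc3 (0.279%) and Apoa4 (0.16%) had the highest shares in kidney. With the equal sum, the log2 ratio of Apom was 1.49 in place of 2.08, and Apom no longer met the 4-fold rule.

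Apod, a lipocalin that binds arachidonic acid and progesterone and is known from glia and peripheral tissues, had the reverse pattern. Its levels were 46.8 FPKM in cortex, 23.1 in skeletal muscle, 16.2 in VAT, 11.8 in SCAT, 11.6 in BAT, 0.486 in kidney and 0.0904 in liver. Cortex was highest, muscle and the 3 adipose tissues followed, and kidney and liver were both under 1 FPKM. The order in the middle depended on the scaling, since with the equal sum VAT (24.2) and SCAT (21.5) were above skeletal muscle (13.6) and BAT (8.30), and cortex was at 72.5. The log2 ratio of cortex over the next tissue was 1.02 over muscle, 1.42 over VAT with size factors and 1.58 over VAT with the equal sum, so Apod did not meet the 4-fold rule under any of the 3. It was at least 4-fold lower in liver than in VAT (background 9.19%), cortex (17.3%), SCAT (8.45%), BAT (8.75%) and skeletal muscle (12.3%), while 0 of the 9 genes were called lower in liver than in kidney (8.19%). Apod was listed lower in liver than in kidney as well, but on the log2(FPKM + 0.1) scale, at -2.39 and -0.77, the values lie less than 4-fold apart, and both levels are under 1 FPKM. Astrocyte markers summed to 216 FPKM and oligodendrocyte markers to 174 in cortex, where all 6 genes were detected. Oligodendrocyte markers summed to at most 5.63 FPKM elsewhere. Astrocyte markers summed to 43.6 in liver (Slc1a2 35.6), 21.2 in kidney (Aqp4 20.4), 15.2 in skeletal muscle (Aqp4 15.1) and under 1 in each adipose tissue. Fibroblast markers (Pdgfra, Col1a1, Dcn and Lum, 4 of 4 detected in every tissue) summed to 379 FPKM in VAT, 340 in skeletal muscle, 221 in SCAT, 119 in liver, 104 in BAT, 25.1 in kidney and 19.7 in cortex. Most of these sums was Dcn, with 341 in VAT and 260 in skeletal muscle. Pdgfra, Col1a1 and Lum were each higher in skeletal muscle than in VAT. The part of these cell types in the Apod levels was not tested.

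Apoc1, a small exchangeable protein of very-low-density lipoprotein and HDL that hampers remnant uptake, had 560 FPKM in BAT, 144 in VAT, 26.4 in SCAT, 4.79 in skeletal muscle, 2.91 in kidney and 1.43 in cortex. The 3 adipose tissues were all above the other 3 tissues with a value. BAT was 3.89-fold above VAT, and the log2 ratio of 1.96 fell to 1.5 with size factors and 0.90 with the equal sum, below the 4-fold rule in each case. Without the VAT library the next tissue was SCAT, and the log2 ratio of 4.40 met the rule. Apoc1 ranked 89 among protein-coding genes in BAT and 150 in VAT. Liver, where this gene is known to be strongly expressed, has no value for it. The table lists Apoc1 there at 0 with the status LOWDATA, as it does all 32 loci of the range on chromosome 7 from 19404776 to 19750483 (346 kb). Of these 32 loci, among them Apoe, Apoc2 and Apoc4, 25 had at least 1 FPKM in another tissue, and only 56 loci of the whole table have that status with 0 in liver. These zeros were treated as missing, so the place of liver in the order of Apoc1 is not known, and its rank of BAT first holds for 6 tissues. The hepatocyte marker sum was 13.2 FPKM in BAT and 594 in VAT. Macrophage markers (4 of 4 detected in every tissue) summed to 34 FPKM in BAT, 49.5 in VAT, 48.2 in SCAT, 36.3 in skeletal muscle, 10.2 in cortex and 8.64 in kidney, and adipocyte markers to 1419 in BAT, 1071 in VAT and 415 in SCAT. The part of these cell types in the Apoc1 levels was not tested.

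**Figure D4:**
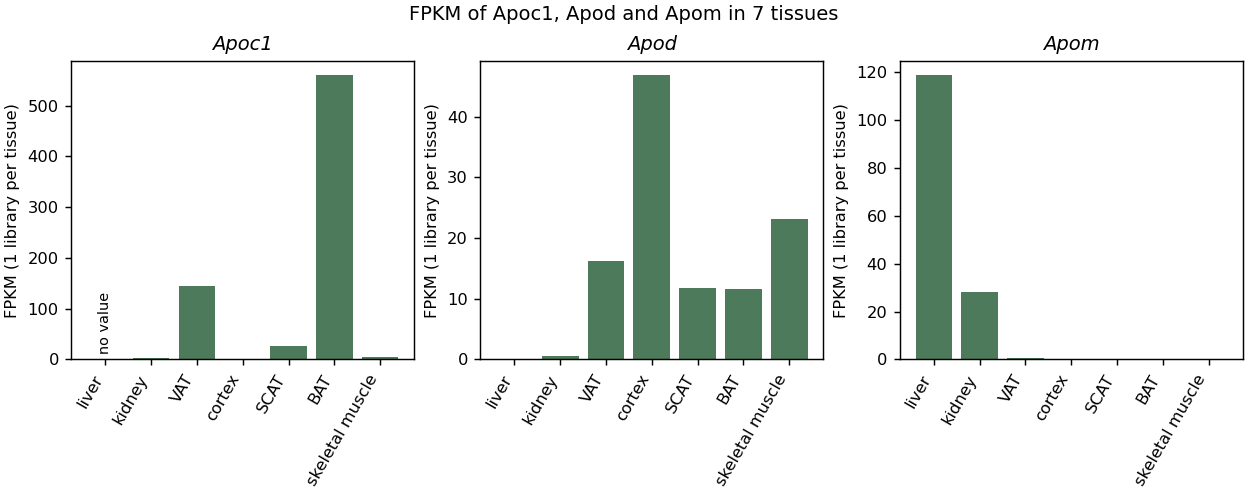
FPKM (linear axes from 0, 1 panel per gene with its own scale) of Apoc1, Apod and Apom in 7 tissues, 1 bar per library and no error bars because each tissue has 1 library. Apoc1 is highest in BAT (560) and has no bar for liver, Apod is highest in cortex (46.8) and lowest in liver (0.0904), and Apom is high in liver (119) and kidney (28.0).

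The make-up of the family therefore differed between tissues. The 9 genes with a value summed to 17904 FPKM in liver, with 63.4% of the sum from Apoa2 and 14.1% from Apoa1. This was 4.90% of the FPKM of the nuclear protein-coding genes with a value in liver. That total lacks Alb, Apoe, Apob and Apoc1, which have no liver value, and it includes the locus named Usp21. The equal-sum scaling rests on the same totals. In BAT the sum of 575 FPKM was 97.4% Apoc1, and in SCAT the sum of 40.1 FPKM was 65.9% Apoc1 and 29.4% Apod. VAT, with a sum of 284 FPKM, held 50.7% Apoc1 and 26.9% Apoa2. Apod made up 93.4% of the 50.1 FPKM in cortex and 71.7% of the 32.2 FPKM in skeletal muscle, and Apom 59.0% of the 47.4 FPKM in kidney. With the equal sum VAT (423 FPKM) stood above BAT (411 FPKM), and SCAT (73.1 FPKM) above kidney (43.7 FPKM), so the order of these sums depended on the scaling.

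In GRCm38, 4 of the genes lie together on chromosome 9. Apoa1 is annotated on the plus strand from 46228580 to 46230466, Apoc3 on the minus strand from 46232933 to 46235636, Apoa4 on the plus strand from 46240696 to 46243459, and Apoa5 on the plus strand from 46268633 to 46271919. Measured from the start of Apoa1, this cluster ends at 43.3 kb with the end of Apoa5. All 4 were enriched in liver, although their liver levels ranged from 279 FPKM (Apoa4) to 2521 (Apoa1). The other genes are spread over the genome, with Apoa2 on chromosome 1 from 171225054 to 171226379, Apoc1 on chromosome 7 from 19689481 to 19692660, Apod on chromosome 16 from 31296192 to 31314808, Apof on chromosome 10 from 128268671 to 128270153, Apoh on chromosome 11 from 108343354 to 108414396 and Apom on chromosome 17 from 35128997 to 35132050. Enrichment in liver was thus not limited to the chromosome 9 cluster.

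RefSeq promoter windows of GRCm38.p6 (300 bases, 250 before to 50 after a transcription start) matched 7 of the 10 genes, with 9 windows. The letters TATAAA, the classical core of a TATA box, were searched on both strands and occur in 13.6% of 32851 windows. Of the 9 windows, 3 held them, which are 1 of the 2 of Apoa2 and both of Apoa5, whose windows overlap and share 1 copy. The copy starts at position -31 from the start printed here for Apoa5 and at -212 for Apoa2, far from where a TATA box lies. The stretches of 250 bases before the start of these genes are printed with TATAAA in capitals, beside 200 bases of Apoa1, which is also enriched in liver but lacks the letters in its whole window. The Apoa1 stretch runs from position -250 to -51, up to the start of the gene in GENCODE, so the bases next to its RefSeq start are not shown. Also printed are the 250 bases before the start of Apod, the gene lowest in liver. They lie at chr1:171224804-171225053 on the plus strand (Apoa2), chr9:46268358-46268607 on the plus strand (Apoa5), chr9:46228380-46228579 on the plus strand (Apoa1) and chr16:31314809-31315058 on the minus strand (Apod).
Apoa2: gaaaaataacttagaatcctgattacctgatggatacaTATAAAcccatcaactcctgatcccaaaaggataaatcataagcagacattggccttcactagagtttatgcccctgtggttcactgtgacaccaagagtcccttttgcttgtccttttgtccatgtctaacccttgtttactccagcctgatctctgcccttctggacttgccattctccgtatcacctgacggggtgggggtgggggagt
Apoa5: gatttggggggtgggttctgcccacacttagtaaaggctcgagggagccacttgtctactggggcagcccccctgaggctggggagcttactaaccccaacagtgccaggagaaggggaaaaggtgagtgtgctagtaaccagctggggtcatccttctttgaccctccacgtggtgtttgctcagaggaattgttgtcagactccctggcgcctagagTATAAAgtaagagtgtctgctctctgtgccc
Apoa1: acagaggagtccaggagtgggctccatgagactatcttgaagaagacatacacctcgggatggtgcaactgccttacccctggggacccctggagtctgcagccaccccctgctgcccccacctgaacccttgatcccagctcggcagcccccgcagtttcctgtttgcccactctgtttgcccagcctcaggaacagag
Apod: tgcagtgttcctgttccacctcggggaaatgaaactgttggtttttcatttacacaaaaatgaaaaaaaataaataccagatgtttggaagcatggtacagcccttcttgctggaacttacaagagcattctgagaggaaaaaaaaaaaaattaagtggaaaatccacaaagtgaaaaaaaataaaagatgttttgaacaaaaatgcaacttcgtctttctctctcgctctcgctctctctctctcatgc
The GC content of these stretches was 46.4% for Apoa2, 55.6% for Apoa5, 60.5% for Apoa1 and 36.4% for Apod. In the full windows of 300 bases it was 47.0% and 52.3% for Apoa2 and 56.7% and 56.0% for Apoa5. It was 59.3% for Apoa1 and 37.3% for Apod, beside a median of 52.7% over all full windows. The letters CAAAGTCCA (part of a site of the liver factor HNF4), GTTAAT (HNF1), TTGCAAC and ATTGCAA (C/EBP, which overlap each other in part) were found in 0 of the 9 windows, and in 0.475%, 7.10%, 2.16% and 2.22% of all windows. No match says only that these letters are not in the window.

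For 6 of the genes the table also lists a locus on the opposite strand at the same place, with an FPKM of its own. It reached 90.6% of the member's level in liver for Apoa2, 38.4% for Apoc3 and 16.8% for Apom, 4.21% in BAT for Apoc1 and 8.05% in cortex for Apod. For Apoa4 the opposite locus, under the name Gm10680, was 5.76-fold above the gene itself in liver. The kit was directional, but the strand setting of the counting is not stated, so reads of a gene and of its opposite partner cannot be told apart with certainty, and the absolute level of Apoa2 and Apoa4 is uncertain to that extent. With the 2 loci of each gene added together, 8 genes were enriched in liver.

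**Figure D5:**
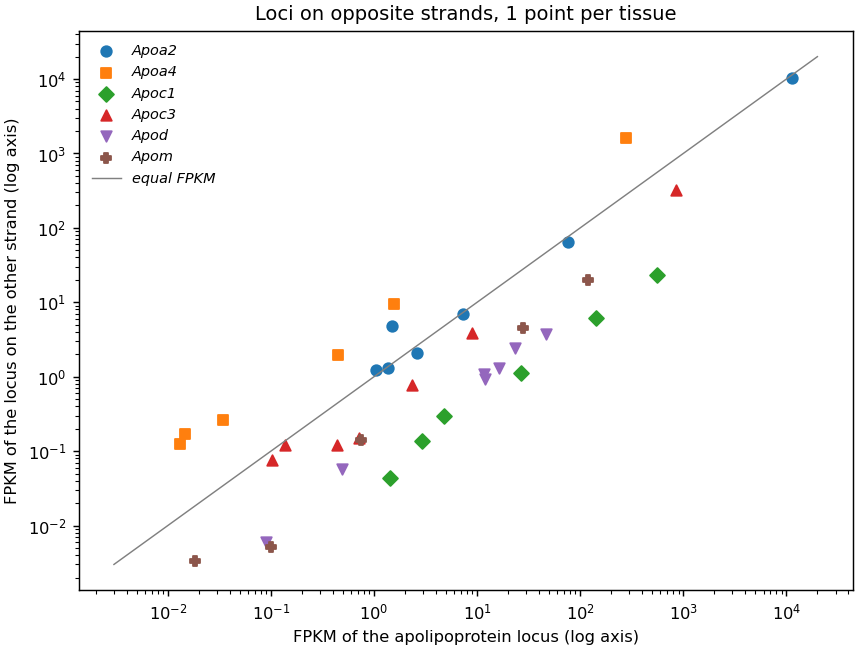
FPKM of the locus on the opposite strand (y axis, log) against FPKM of the member's own locus (x axis, log), 1 point per tissue for 6 genes, with the line of equality and without tissues where either locus is listed at 0. Points of Apoa4 lie above the line, those of Apoa2 lie close to it, with skeletal muscle (317%) the farthest, and those of Apoc3, Apom, Apod and Apoc1 lie below it.

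For each gene, the 2 protein-coding genes with the most similar pattern were sought among 8036 genes with a value in every tissue and at least 10 FPKM in 1 of them. The measure of likeness was the root-mean-square difference of log2(FPKM + 0.1) after centring each gene over the 7 tissues (6 for Apoc1). Apoa1 was closest to Ahsg (0.18), the plasma protein fetuin-A, and to Mup20 (0.35), and Apoa5 to the same 2 genes in the other order, at 0.22 and 0.23. Apof was closest to Mup16 (0.19) and Ugt2b35 (0.21), and Apoa4 to Ugt2a3 (0.26) and Mup21 (0.44). Apom was closest to Acsm1 (0.30) and Prodh2 (0.33), both also high in liver and kidney, with 59.7 and 17.3 FPKM for Acsm1 and 58.9 and 13.6 for Prodh2. Apoa2 had Mup21 (0.46) and Cyp2c37 (0.56), Apoh had Gc (0.52), the vitamin D-binding protein, and Fga (0.66), and Apoc3 had Serpina1a (0.70) and Mup21 (0.75). Apod had Syn2 (0.68) and Tppp3 (0.93). Syn2 had 51.5 FPKM in VAT and 50.8 in cortex, and Tppp3 was highest in skeletal muscle (23.2), with 10.1 in cortex. Over its 6 tissues, Apoc1 was closest to Orm3 (0.58), with 11.1 FPKM in BAT, 4.32 in VAT and 1.33 in liver, and H2-Q10 (0.61), with 39.3 in BAT, 4.72 in VAT and 354 in liver, a tissue that did not enter the comparison. Mup, Serpina1, Ugt2 and Orm genes have near-identical copies, between which reads can be split, so their values are uncertain. The neighbours depended on the measure, since 8 of the 20 were the same when ranked by Pearson's correlation and 3 with a pseudocount of 1 FPKM.

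The other genes of lipoprotein metabolism, in 6 lists, were described by the same rule. They hold 56 genes, of which 55 had a locus, and 23 of these were enriched in a tissue, 17 in liver, 4 in kidney, 1 in VAT and 1 in cortex. The background shares were 21.4% in any tissue, 3.39% in liver, 2.49% in kidney, 1.21% in VAT and 8.21% in cortex, and the counts of each list stand beside these. Among 10 other apolipoproteins and HDL-associated proteins, 5 were enriched in liver, namely Apon (106 FPKM), the serum amyloid A genes Saa1 (20.5), Saa2 (4.48) and Saa4 (92.2), and the HDL esterase Pon1 (584). Apob, the structural protein of VLDL and LDL, and Apoe, the main ligand of remnant receptors, have no liver value, like Apoc2 and Apoc4. Without liver, Apob was enriched in kidney (40.2 FPKM, 6.20 in VAT) and Apoc4 in VAT (12.0 FPKM, from a locus that carries 3 names). Apoe had 579 FPKM in VAT, 457 in SCAT, 173 in cortex, 131 in BAT, 33.7 in kidney and 32.1 in skeletal muscle, so that its order differed from that of its neighbour Apoc1, which was highest in BAT.

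Of 7 measured genes of lipoprotein assembly and secretion, 2 were enriched in liver, the lipid transfer protein gene Mttp (127 FPKM) and Tm6sf2 (13.2 FPKM). Of 9 genes of plasma lipases and remodelling, 2 were, the hepatic lipase gene Lipc (110 FPKM) and Lcat (163 FPKM), the enzyme that Apoa1 activates. Lpl, the enzyme on which Apoa5 and Apoc3 act, was lowest in cortex (3.02 FPKM) and liver (5.92) and highest in BAT (646) and VAT (301). The genes for Lpl and for its 2 liver-enriched regulators thus had their highest levels in different tissues. Among 11 receptors, 3 were enriched in kidney, namely Lrp2 (222 FPKM), which encodes megalin, and the genes of its partners, Cubn (58.2) and Amn (24.2). Lrp8, a receptor of Apoe in neurons, was enriched in cortex (6.70 FPKM, background 8.21%). Lrp1 had 74.3 FPKM in liver, the 1 receptor that met the rule there (background 3.39%), but it did not meet it with size factors, the equal sum or an 8-fold rule.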

How the data were processed

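RNA of 7 mouse tissues was sequenced as paired-end directional libraries, with 1 library per tissue. Per the study's methods, the authors removed adapters with flexbar, filtered rRNA reads with Bowtie2 2.2.9, aligned the rest to GRCm38 (mm10) with STAR 2.6.0c, and assembled, merged and compared transcripts with Cufflinks 2.2.1. The authors deposited the gene table of cuffdiff, in which the values are FPKM. Its p-values and q-values, log2 fold changes and test statistic, a score, were deposited by the authors for 21 comparisons and were not used. The cuffdiff settings for strand and scaling are not given in the sources used here.

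Names were split on commas, 151 loci with the status FAIL were dropped, zeros with the status LOWDATA were treated as missing, and of several loci of a name the one with the highest FPKM was used. Merged loci can share a range, and the locus used for 10 of 10 members lies on the annotated strand, read from the order of the table. FPKM were compared as log2(FPKM + 0.1) without a test. Library depth is unknown, so no interval was computed. The genes and lists were chosen with earlier results of these data known. Named are the members, the 2 most similar genes of each, marker genes, and, from each list, genes in counts of 5 or fewer or the 3 highest. Genes whose values were given beside these were chosen after their values were seen. Alternatives covered the pseudocount, scaling, minimum FPKM, fold, tau (a tissue specificity index), loci of a name, and the VAT and SCAT libraries. Coordinates are those of GENCODE M21, and promoter sequences are from RefSeq. Protein sequences were not used here. Python 3.11.15, pandas 2.3.3, NumPy 2.4.6 and matplotlib 3.10.9 were used.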

Additional observations from a re-analysis of the deposited data

Results flagged for a closer look

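For 6 of the 10 genes the table holds a further locus on the opposite strand at the same place, which the comparisons above did not use and which also had signal. Opposite Apoa2 a locus had 10273 FPKM in liver, 90.6% of Apoa2. The table names this locus Usp21, and its merged range holds both Apoa2 and the gene Usp21, which is annotated on chromosome 1 from 171281945 to 171287991. Its place opposite Apoa2 is read from the order of the table, in which it stands just before Fcer1g, while another locus of the name Usp21 stands between Ppox and Ufc1. Its level was 79.2% to 118% of Apoa2 in 6 tissues and 317% in skeletal muscle. Opposite Apoa4, Gm10680, an antisense gene that overlaps Apoa4 by 839 bp, had 1608 FPKM in liver, 5.76-fold the level of Apoa4, and from 4.41-fold to 11.8-fold in the other tissues where Apoa4 was above 0. The loci named for a member on its opposite strand reached 324 FPKM in liver for Apoc3 (38.4% of Apoc3), 19.9 in liver for Apom (16.8%), 23.6 in BAT for Apoc1 (4.21%) and 3.77 in cortex for Apod (8.05%). Adding the opposite locus to each gene, an alternative chosen after seeing the data, gave 8 genes enriched in liver, with log2 ratios from 2.09 for Apom to 7.40 for Apoa4. How reads were assigned to strands was not tested.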

How the results depend on the processing

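No paired analysis was possible because the design has a single library for each tissue and the comparisons rest on no test. The highest tissue of each gene was the same with size factors and with an equal sum (10 of 10), and the next highest tissue was the same in 9 of 10, the exception being Apod, for which VAT took the place of skeletal muscle (19.5 against 19.3 FPKM with size factors). The count of 8 genes enriched in liver was 7 with libraries scaled to an equal sum and with an 8-fold rule, both without Apom, and 7 with tau of at least 0.85, without Apoa2 (tau 0.817), and 8 under the others. With a 2-fold rule 1 gene (Apod) was enriched in cortex and 1 (Apoc1) in BAT. Without the VAT library 1 gene, Apoc1, was enriched in BAT (log2 ratio 4.40). Among the receptors, the count enriched in liver was 0 with size factors, 0 with an equal sum, 5 with the 2-fold and 0 with the 8-fold rule, in place of 1. Among the transcription factors it was 2 with a minimum of 5 FPKM in place of 4. With an equal sum, the summed level of the family was 10962 FPKM in liver, 423 in VAT and 411 in BAT, in the reverse order of the reported 284 and 575, 77.6 in cortex, 73.1 in SCAT and 18.9 in skeletal muscle. That scaling shifted log2 levels by -0.77 (skeletal muscle) to 0.87 (SCAT), and it moved 31 of 48 percentages of the liver level by over 1.5 times, against 0 of 48 with size factors, that of Apom in kidney to 35.5% and those in VAT to between 1.36% and 2.6%. The log2 ratio of Apoc1 was 1.5 with size factors and 0.90 with the equal sum. Size factors shifted log2 levels by -0.26 to 0.40. The levels of single genes with the equal sum were computed after seeing the data. Of the 20 most similar genes, 8 were the same when ranked by Pearson's correlation and 3 with a pseudocount of 1 FPKM. With 1 library per tissue and no depth, no difference could be set against the spread between animals.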

Other observations

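Of 6 genes of cholesterol export, 3 were enriched in liver (background 3.39%). Abcg5 (35.4 FPKM) and Abcg8 (22.2 FPKM) encode the subunits of a sterol transporter, and Abcb11 (67.4 FPKM) encodes the bile salt export pump. Abca1, which loads lipid onto apolipoprotein A-I, had 29.0 FPKM in liver, 16 in VAT and in BAT, 13.6 in SCAT, 7.90 in skeletal muscle, 3.32 in kidney and 2.11 in cortex, and was not enriched. Apoa1 itself was at 1.01 FPKM or lower in 5 of these tissues.

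Of 12 transcription factors known from hepatic lipid metabolism, 4 (background 3.39%) were enriched in liver, namely Creb3l3 (129 FPKM), a regulator of apolipoprotein genes in fasting, Foxa2 (8.23), Foxa3 (2.68) and Nr0b2 (4.75). With a minimum of 5 FPKM the count was 2. Hnf4a had 207 FPKM in liver and 159 in kidney, and Nr1h4, the bile acid receptor, 53.0 and 39.3. With the equal sum kidney was above liver for both, at 146 against 126 FPKM for Hnf4a and 36.2 against 32.5 for Nr1h4. For both factors, kidney was within 2-fold of liver. In kidney, Apoa1, Apoa2, Apoa4, Apoa5, Apoc3, Apof and Apoh were at less than 1% of their liver level and Apom was at 23.6%. Whether these factors bear on the levels of the apolipoprotein genes was not tested. Hnf4a had 2.42 FPKM in VAT and at most 0.138 FPKM in cortex, SCAT, BAT and skeletal muscle.

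Of the mesothelium markers, Upk3b (3.13 FPKM) and Krt19 (6.83 FPKM) were highest in VAT and Msln in cortex (4.06 FPKM, 0.560 in VAT), and the list summed to 10.5 FPKM in VAT and 4.09 in cortex. Brown adipocyte markers summed to 7384 in BAT and at most 12.9 elsewhere.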
